A study of Mus musculus with 6 samples.

Results

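The genes described here are 29 genes of red blood cells and of heme synthesis, chosen by name for their roles: globins and a globin chaperone, membrane and skeleton proteins, regulators of the erythroid lineage, enzymes that make heme, and carbonic anhydrases. They were read in RNA of freshly isolated mouse stomach at E13.5, in mid-gestation, on 3 Affymetrix arrays of wild type embryos and 3 of embryos with the genotype Nkx3.2Cre;R26-SmoM2, called SmoM2 here. In these, Cre driven by Nkx3.2 (Nkx3-2), a gene of the stomach mesenchyme, turns on an allele at the Rosa26 locus that encodes SmoM2, a form of Smoothened active in the absence of hedgehog ligand. The labels do not say whether the wild type embryos carried either allele, nor whether each array holds 1 embryo or a pool, so the p-values below measure the spread between these arrays, part of which may be technical. Each gene was read from the probe set (the group of probes summarised into 1 value) that the platform annotation gives to that symbol alone, and the one with the highest mean over the 6 arrays where there were several. This left 26 of the 29 genes, out of 19938 genes tested in all. Hba-a1 and Hbb-bt, the adult alpha and beta globin genes, had probe sets annotated to several genes at once, and Ahsp, which encodes the chaperone of free alpha globin, was not analysed here.

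Red cells of the mid-gestation mouse embryo come from the yolk sac first and then from the fetal liver, and they reach the stomach with the blood. Each hemoglobin joins alpha-like and beta-like globin chains around heme, which is built in steps from glycine and succinyl-CoA, starting with an erythroid form of aminolevulinate synthase and ending with the insertion of iron by ferrochelatase. The transcription factors Gata1 and Klf1, which bind GATA and CACCC elements, switch on globin, heme and membrane genes together. In whole tissue, fewer erythroid cells and less of these RNAs per cell cannot be told apart.

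The labels and the values went together for the targeted pathway. Hhip and Ptch1, whose transcripts rise with hedgehog signalling, rose by 1.28 and 0.48 on the log2 scale in SmoM2 (limma adjusted p = 0.000175 and 0.0174). Markers of both stomach layers were measured in each array: 8 mesenchymal genes had mean levels of 10.90 to 11.15 and 8 epithelial genes of 10.37 to 11.04, against medians of 6.16 to 6.40 for 1194 olfactory and vomeronasal receptor genes, which mark dim probe sets. Values on the 6 arrays ran from 3.79 to 14.72. X- and Y-linked markers of sex differed between arrays. Xist stood at 7.11, 11.94 and 11.68 in wild type 1, 2 and 3 and between 11.43 and 12.37 in SmoM2, and the Y-linked genes had mean levels of 10.37, 9.92 and 9.07 in wild type against 8.71 to 9.27 in SmoM2.

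As a group the erythroid and heme genes lay slightly below wild type in SmoM2, and no single gene passed the test. Of the 26 genes 0 rose and 0 fell at a limma adjusted p of 0.05, where 0.983% of all genes tested passed in either direction, 0.657% as lower and 0.326% as higher. At an unadjusted p of 0.05, 8 of the 26 (30.8%) were lower and 0 higher, against 7.24% of all genes lower. They were Hba-x, Hbb-bh1, Slc4a1, Rhd, Hemgn, Alas2, Urod and Car2. In 8 of the 26, all 3 SmoM2 arrays lay below all 3 wild type arrays, against 10.1% of all genes. These were Hba-x, Hbb-bh1, Hemgn, Alas2, Uros, Urod, Cpox and Car2. The change was negative in 23 of the 26 genes (49.2% of all genes), with a median of -0.15 on the log2 scale against 0.00 over all genes tested. Brighter genes had higher background shares. Among the 11857 genes above the median signal of all probe sets, 58.6% of changes were negative. In 14.4% of these genes all SmoM2 arrays lay below all wild type arrays. Of the 26 genes 22 lay in this set, and 8 of the 22 had groups apart. The changes of the 26 genes were small, from -0.38 to 0.07. Without wild type 2 the count at an unadjusted p of 0.05 was 5 (7.7% of all genes in either direction). When the mean of the Y-linked genes on each array entered the fit as a covariate it was 3 (4.8% of all genes in either direction). Without SmoM2 3 and without wild type 1, 15 and 13 genes had groups that did not overlap as lower, against 13.1% and 11.9% of all genes.

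**Figure D1:**
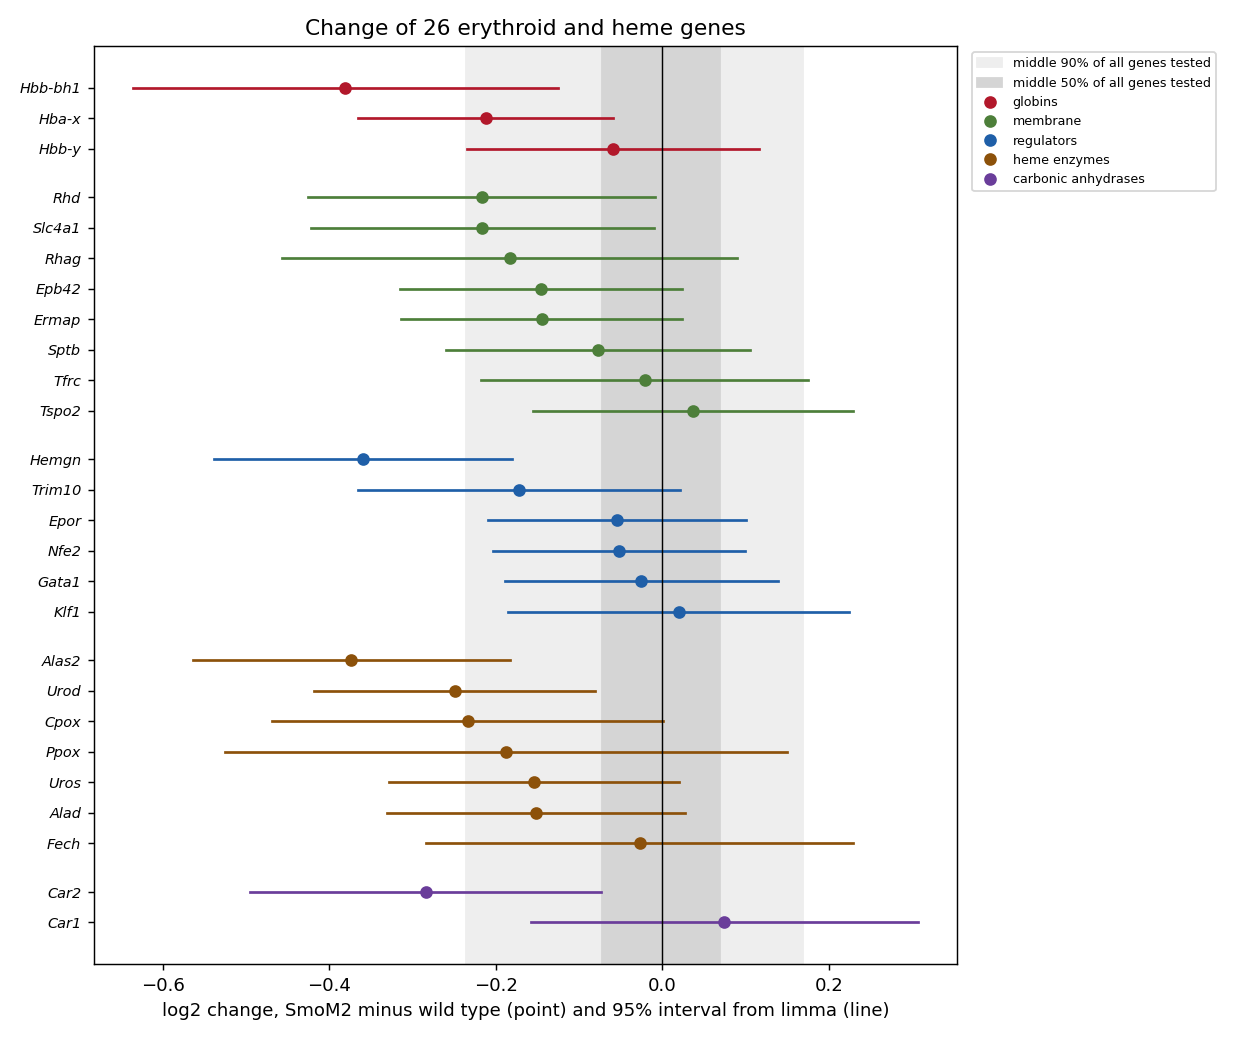
Log2 change (SmoM2 minus wild type, points) and 95% interval from limma (lines) of the 26 erythroid and heme genes by role, over the middle 50% and 90% of the changes of all genes tested (grey bands). Most points lie left of 0, from -0.38 for Hbb-bh1 to 0.07 for Car1. Only the intervals of Hba-x, Hbb-bh1, Slc4a1, Rhd, Hemgn, Alas2, Urod and Car2 leave out 0. All others include it, those of Gata1, Klf1, Epor and Nfe2 among them.

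Upstream sequences of 5 of the genes are shown because each holds a GATA match, an element by which erythroid genes are known to be controlled, while their values differed: the SmoM2 and wild type arrays of Hba-x, Alas2 and Hemgn did not overlap, and those of Hbb-y and Klf1 did. Each run is the 250 bases before the gene's start in the RefSeq promoter table (GRCm38.p6), 5′ to 3′ on the gene's strand, with capitals on matches to a GATA element (AGATAA or its variants TGATAA and AGATAG, besides TGATAG) or a CACCC element (CCACCC) on either strand.
Hba-x (chr11:32276350-32276599, + strand): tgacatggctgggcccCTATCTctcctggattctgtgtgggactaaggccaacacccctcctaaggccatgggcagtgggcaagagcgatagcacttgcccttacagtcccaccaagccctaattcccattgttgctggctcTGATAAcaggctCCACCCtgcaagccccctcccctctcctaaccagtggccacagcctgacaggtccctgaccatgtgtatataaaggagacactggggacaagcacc
Alas2 (chrX:150547167-150547416, + strand): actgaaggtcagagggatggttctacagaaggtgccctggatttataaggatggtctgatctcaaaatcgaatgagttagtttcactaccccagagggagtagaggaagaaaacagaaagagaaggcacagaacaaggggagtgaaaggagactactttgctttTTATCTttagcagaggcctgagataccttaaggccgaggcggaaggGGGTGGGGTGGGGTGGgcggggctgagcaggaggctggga
Hemgn (chr4:46404184-46404433, - strand): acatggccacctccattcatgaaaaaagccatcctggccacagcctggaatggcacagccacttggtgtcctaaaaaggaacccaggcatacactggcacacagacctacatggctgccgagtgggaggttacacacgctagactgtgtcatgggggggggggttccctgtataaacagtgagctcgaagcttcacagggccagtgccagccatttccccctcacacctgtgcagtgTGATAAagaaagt
Hbb-y (chr7:103853208-103853457, - strand): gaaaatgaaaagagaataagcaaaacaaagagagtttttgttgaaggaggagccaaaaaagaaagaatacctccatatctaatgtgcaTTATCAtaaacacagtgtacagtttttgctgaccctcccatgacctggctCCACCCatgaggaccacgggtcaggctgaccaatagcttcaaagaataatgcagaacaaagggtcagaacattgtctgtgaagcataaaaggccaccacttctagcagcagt
Klf1 (chr8:84901732-84901981, + strand): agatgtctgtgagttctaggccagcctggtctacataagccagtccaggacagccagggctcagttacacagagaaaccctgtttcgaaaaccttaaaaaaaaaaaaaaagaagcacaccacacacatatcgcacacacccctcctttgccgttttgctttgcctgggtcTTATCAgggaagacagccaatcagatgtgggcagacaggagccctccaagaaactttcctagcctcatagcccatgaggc

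In the 250 bases before its start, Hba-x had a GATA match from 108 to 103 bases and a CACCC match from 96 to 91 bases before the start, besides a GATA match farther up. Alas2 had a GATA match 86 to 81 bases before the start, and 3 CACCC matches on the other strand, each sharing a base with the next, that cover 40 to 25 bases before it. Hemgn had a GATA match close to the start, at 13 to 8 bases, and no CACCC match. Hbb-y had matches to both, at 162 to 157 and at 112 to 107 bases, and Klf1 a GATA match at 80 to 75 bases. Of the 26 genes 20 had an entry in the table, with 23 promoters between them. A GATA match stood in 13 of the 23 (56.5%; 26.5% of all 32851 promoters), a CACCC match in 11 (47.8%; 28.1%) and both in 7 (30.4%; 5.8%). The 7 with both were those of Hba-x, Hbb-y, Alas2, Rhag, Ermap, Epor and Trim10. The motifs were chosen after the sequences had been seen, and a match is a run of letters, not a known site. Hbb-bh1, Slc4a1, Nfe2, Fech, Car1 and Car2 had no entry.

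The embryonic globins had 2 of 3 genes with non-overlapping groups, lower in SmoM2 (10.1% of all genes). Hbb-bh1, a beta-like globin of primitive red cells, stood at 12.79, 13.05 and 12.66 in wild type 1, 2 and 3 and at 12.46, 12.30 and 12.60 in SmoM2 1, 2 and 3 (log2 signal). All 3 SmoM2 values lay below the lowest wild type value, SmoM2 3 by the smallest margin. The log2 change was -0.38 (SE 0.11, 95% interval -0.64 to -0.13), a signal 23.2% lower, with an unadjusted p of 0.00795 and a limma adjusted p of 0.215. Hba-x, the embryonic zeta chain of the alpha family, stood at 13.79, 13.85 and 13.74 in wild type and at 13.59, 13.53 and 13.63 in SmoM2. Its groups were also apart, with a log2 change of -0.21 (SE 0.07, interval -0.37 to -0.06, limma adjusted p = 0.262). Hbb-y, the other embryonic beta-like globin, stood at 14.00, 14.21 and 14.08 in wild type and at 14.02, 13.98 and 14.11 in SmoM2, and the groups overlapped (log2 change -0.06, interval -0.24 to 0.12, limma adjusted p = 0.866). Globin genes are close in sequence, so values are uncertain where probes of 1 gene can also read another.

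The adult globins could be read only as joint signals. A pair of probe sets annotated to both adult alpha globin genes stood at 13.93 ± 0.07 and 13.67 ± 0.08 in wild type (SD, n = 3) and at 13.81 ± 0.17 and 13.55 ± 0.17 in SmoM2. A pair annotated to 4 adult beta globin genes stood at 13.54 ± 0.14 and 13.40 ± 0.12 in wild type and at 13.41 ± 0.18 and 13.27 ± 0.17 in SmoM2. Each of the 4 differences was -0.12 on the log2 scale, smaller in size than the SD of the SmoM2 arrays. Against the SD of the wild type arrays, the differences were larger for the alpha pair and smaller for the beta pair. In each of the 4 probe sets SmoM2 3 lay within the range of the wild type arrays. They belong to no single gene and were not tested.

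Among the heme enzymes, all 7 changes were negative and 0 of 7 passed the test, with a median of -0.19. Alas2, the erythroid aminolevulinate synthase that controls the rate of heme synthesis in red cells, had the largest. It stood at 10.05, 10.15 and 9.96 in wild type 1, 2 and 3 and at 9.72, 9.54 and 9.77 in SmoM2. The groups did not overlap, and the difference was larger than the SD within either group (0.10 and 0.12). The log2 change was -0.37 (SE 0.08, interval -0.56 to -0.18), a signal 22.8% lower, with an unadjusted p of 0.00153 and a limma adjusted p of 0.0928. Among the 11857 genes above the median signal of all probe sets Alas2 passed, at an adjusted p of 0.0496. Alas2 and Gata1 lie on the X chromosome, and in the fit with the Y-linked covariate the log2 change of Alas2 was -0.30 (limma adjusted p = 0.925).

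The steps that follow are made by enzymes that all cells use. Urod, which removes carboxyl groups from uroporphyrinogen, stood at 11.44, 11.38 and 11.49 in wild type and at 11.19, 11.29 and 11.09 in SmoM2 (log2 change -0.25, SE 0.07, limma adjusted p = 0.221). Here SmoM2 3 was the lowest array, not the one nearest to wild type. Cpox, which acts next, stood at 10.04, 10.09 and 10.08 in wild type and at 9.58, 9.99 and 9.94 in SmoM2, with SmoM2 1 standing apart (log2 change -0.23, interval -0.47 to 0.00, limma adjusted p = 0.477). Uros, which closes the ring, stood at 9.27 ± 0.07 and 9.11 ± 0.10 (SD, n = 3), with groups that did not overlap. Alad, which joins the first building blocks, stood at 12.72 ± 0.12 and 12.57 ± 0.06, and its groups overlapped. Ppox, the step before the last, varied most between arrays, at 10.38 ± 0.23 and 10.19 ± 0.28, with SmoM2 2 among the wild type values. Fech, which inserts the iron, stood at 9.88, 10.14 and 9.94 in wild type and at 9.81, 9.86 and 10.21 in SmoM2, so that SmoM2 3 was the highest of all 6 arrays (log2 change -0.03, interval -0.28 to 0.23). Limma adjusted p for these last 4 ran from 0.553 to 0.969. The median of the heme enzymes was -0.30 without SmoM2 2 and -0.12 without SmoM2 1. Without SmoM2 1 the change of Cpox was -0.11 and that of Ppox -0.08, and without SmoM2 3 that of Uros was -0.10.

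**Figure D2:**
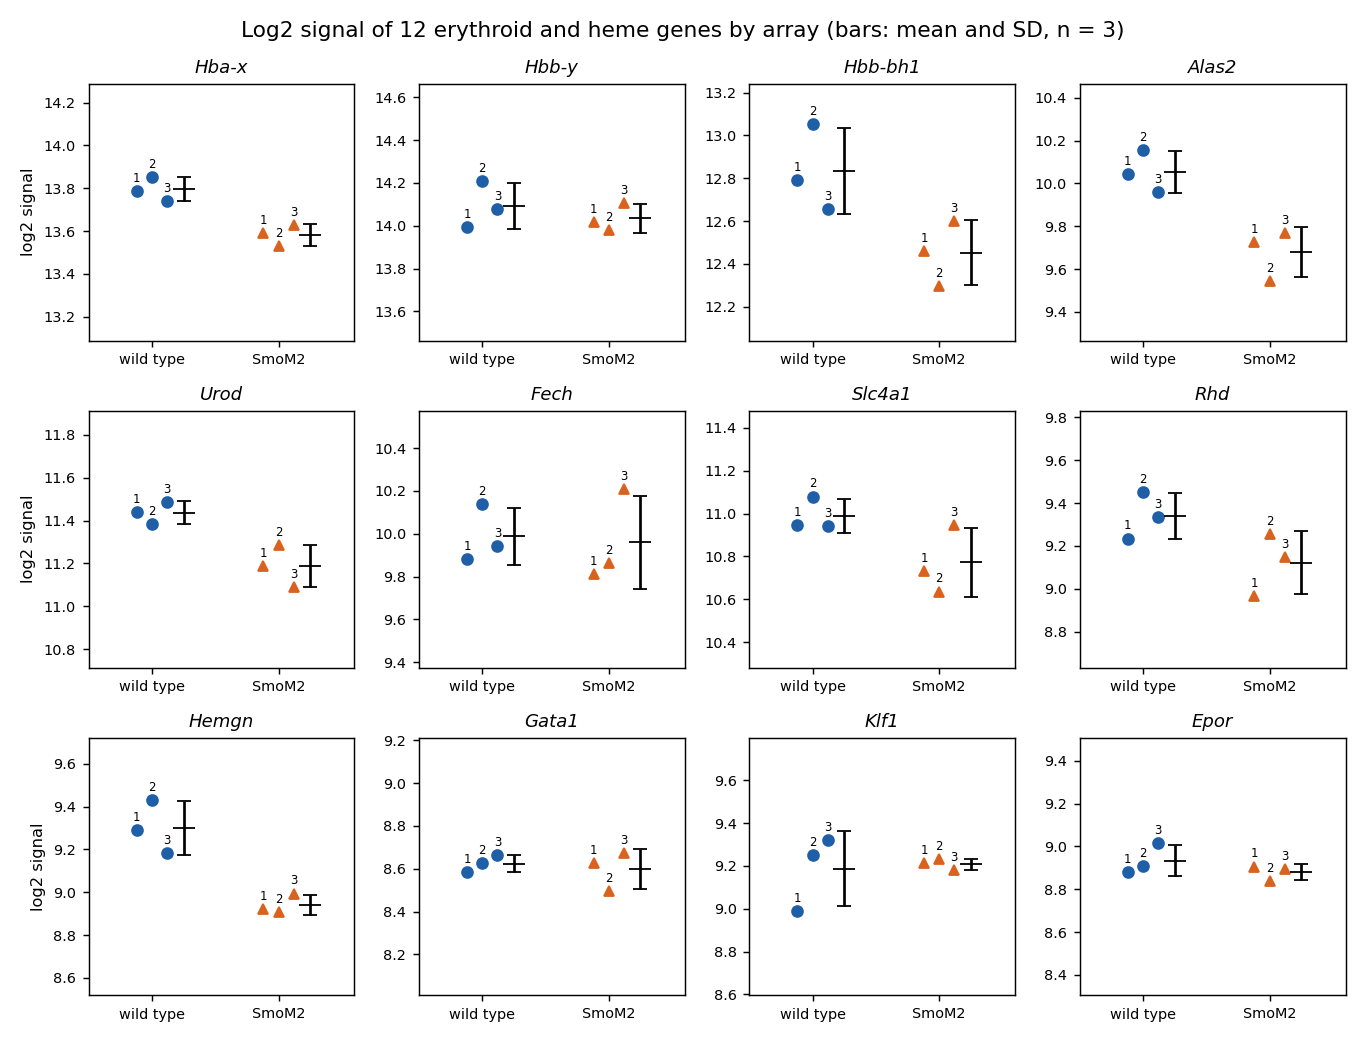
Log2 signal of 12 of the genes on each array (blue circles wild type, orange triangles SmoM2, numbers give the replicate), with mean and SD of the 3 arrays; each panel spans 1.2 log2 units. The groups are apart in Hba-x, Hbb-bh1, Alas2, Urod and Hemgn and overlap in Hbb-y, Fech, Slc4a1, Rhd, Gata1, Klf1 and Epor.

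The membrane and skeleton genes had a median change of -0.15, with 7 of 8 negative, 0 past the test and 0 with groups apart. Slc4a1, the anion exchanger of the red cell membrane, stood at 10.95, 11.08 and 10.94 in wild type and at 10.73, 10.64 and 10.95 in SmoM2. SmoM2 1 and 2 were low and SmoM2 3 was level with wild type (log2 change -0.22, SE 0.09, interval -0.42 to -0.01, limma adjusted p = 0.441). Rhd, a Rhesus antigen, stood at 9.23, 9.45 and 9.33 in wild type and at 8.96, 9.25 and 9.15 in SmoM2, which overlapped through SmoM2 2 and wild type 1 (log2 change -0.22, interval -0.43 to -0.01, limma adjusted p = 0.445). Rhag, the Rhesus glycoprotein that carries Rhd to the membrane, stood at 8.71, 8.81 and 8.67 in wild type and at 8.24, 8.67 and 8.73 in SmoM2, where SmoM2 1 alone was low. Without SmoM2 1 the change of Rhag was -0.03 and that of Rhd -0.14, and the median of the membrane genes was -0.095.

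The other membrane genes lay closer together. Epb42, which ties the anion exchanger to the skeleton, averaged 8.96 ± 0.08 on the wild type arrays and 8.82 ± 0.08 on the SmoM2 arrays (SD, n = 3), and Ermap, an erythroblast membrane protein, at 9.77 ± 0.085 and 9.62 ± 0.07. Their log2 changes were both -0.15, with limma adjusted p of 0.569 and 0.568. Sptb, erythroid beta spectrin, stood at 9.65 ± 0.10 and 9.58 ± 0.09. Tspo2, an erythroid member of the translocator protein family, lay between 7.92 and 8.06 in wild type and between 7.88 and 8.16 in SmoM2, with the 1 positive change of the 8 (0.04). Tfrc, the transferrin receptor through which erythroblasts and most dividing cells take up iron, stood at 11.16, 11.03 and 11.12 in wild type and at 10.96, 11.25 and 11.03 in SmoM2 (log2 change -0.02, interval -0.22 to 0.18), with the highest and the lowest array both in SmoM2.

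The regulators were mixed, with a median of -0.05. Hemgn, a nuclear protein of erythroid precursors, had the smallest p of the 26 genes. It stood at 9.29, 9.43 and 9.18 in wild type 1, 2 and 3 and at 8.92, 8.91 and 8.99 in SmoM2. All SmoM2 arrays lay below all wild type arrays, and the log2 change was -0.36 (SE 0.08, interval -0.54 to -0.18), a signal 22.1% lower, with an unadjusted p of 0.00131 and a limma adjusted p of 0.0856. Among genes above the median signal Hemgn passed, at an adjusted p of 0.0436. In the fit with the Y-linked covariate the log2 change of Hemgn was -0.27 (limma adjusted p = 0.969). Trim10, a ubiquitin ligase family member of erythroid cells, stood at 8.58, 8.80 and 8.54 in wild type and at 8.43, 8.41 and 8.55 in SmoM2, with SmoM2 3 just above wild type 3 (log2 change -0.17, limma adjusted p = 0.547). Without wild type 2 the change of Trim10 was -0.09.

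The lineage-defining factors and the receptor had groups that overlapped. Gata1 stood at 8.58, 8.62 and 8.66 in wild type and at 8.63, 8.49 and 8.67 in SmoM2 (log2 change -0.03, interval -0.19 to 0.14). Klf1 stood at 8.99, 9.25 and 9.32 in wild type and at 9.21, 9.23 and 9.18 in SmoM2, where wild type 1 was the lowest of the 6 (log2 change 0.02, interval -0.19 to 0.22). Nfe2, a partner in the complex that acts on the globin locus control region, stood at 8.43, 8.29 and 8.37 in wild type and at 8.30, 8.32 and 8.32 in SmoM2 (log2 change -0.05, interval -0.20 to 0.10). Epor, the erythropoietin receptor, stood at 8.88, 8.91 and 9.01 in wild type and at 8.91, 8.84 and 8.89 in SmoM2 (log2 change -0.05, interval -0.21 to 0.10). The lower ends of these 4 intervals lay between -0.21 and -0.19. By mean signal Nfe2, Gata1, Epor and Klf1 stood at percentiles 35.3, 41.2, 47.6 and 53.5 of all genes tested. Hemgn stood at 51.9 and Alas2 at 66.4. The part of signal level was not tested, and none of the 4 changes was tested against that of Alas2 or Hemgn.

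The carbonic anhydrases, which hydrate carbon dioxide in red cells and other tissues, differed in sign. Car2, which gastric and other epithelia also make, stood at 11.13, 11.34 and 11.10 in wild type and at 10.79, 10.87 and 11.05 in SmoM2 (log2 change -0.28, SE 0.09, interval -0.49 to -0.07, limma adjusted p = 0.278). Its groups did not overlap. Car1 was dim, between 7.76 and 8.19 in wild type and between 8.03 and 8.08 in SmoM2 (log2 change 0.07, interval -0.16 to 0.31).

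Across arrays, in 23 of the 26 genes the lowest of the 6 arrays was a SmoM2 array (54.9% of all genes), which was SmoM2 2 in 12 (46.2%; 16.0% of all genes), SmoM2 1 in 9 (34.6%; 29.4%) and SmoM2 3 in 2 (7.7%; 9.5%). The share for SmoM2 1 was near that of all genes. In 22 the highest was a wild type array (46.2% of all genes), and in 15 of the 26 (57.7%; 11.5% of all genes) it was wild type 2. The median deviation of the 26 genes from their 6-array means was 0.06, 0.14 and 0.05 in wild type 1, 2 and 3 and -0.13, -0.08 and -0.01 in SmoM2 1, 2 and 3, so SmoM2 3 stood nearest to wild type. The role groups did not share 1 lowest array. SmoM2 2 was lowest in all 3 globins and in 4 of 6 regulators, SmoM2 1 in 4 of 7 heme enzymes, and the pair divided the 8 membrane genes, with 4 each.

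**Figure D3:**
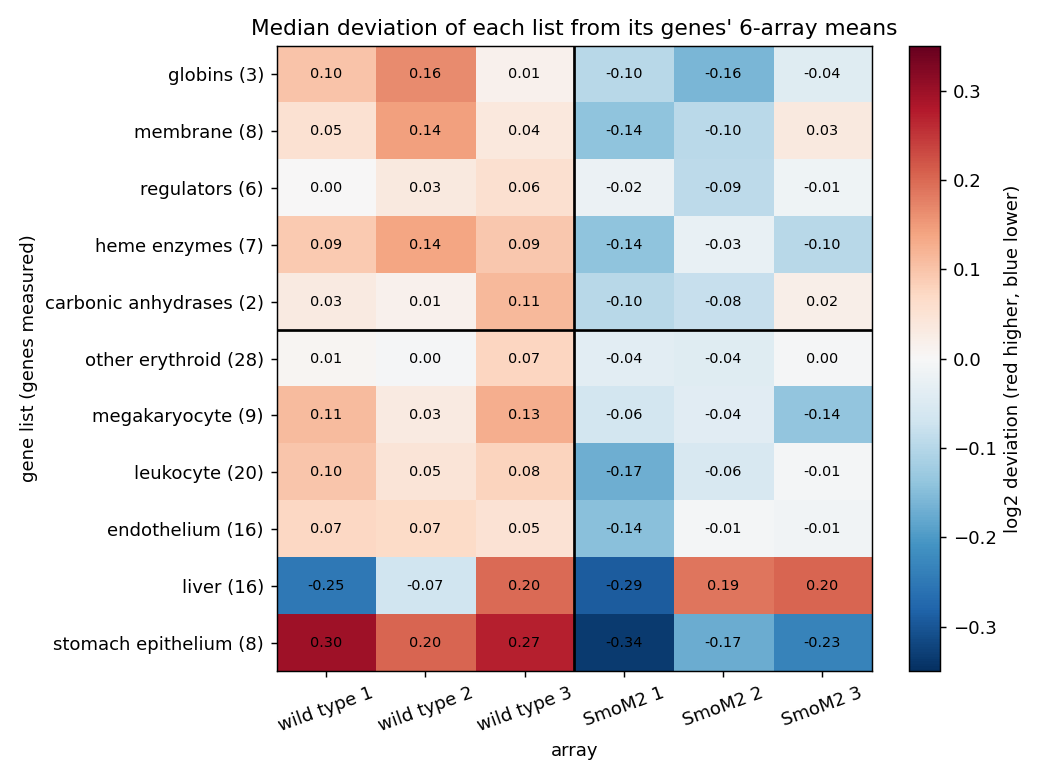
Median deviation (log2) of each gene list on each array from its genes' 6-array means, red higher and blue lower, with the number of genes measured in brackets. Globins, membrane genes and heme enzymes are highest in wild type 2 (0.14 for each of the last 2), and the liver list is low in wild type 1 and SmoM2 1 (-0.25 and -0.29). The epithelial list has the widest gap between the groups, from 0.20 in wild type 2 to -0.17 in SmoM2 2. The other lists, except carbonic anhydrases and liver, also have each wild type median above each SmoM2 median. The margin is smallest for the membrane genes and the wider erythroid list.

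Of 28 measured genes of a wider erythroid list 1 rose and 0 fell, with a median change of -0.03, 7 with SmoM2 below wild type on all arrays and 2 above. The riser was Fhdc1, a formin that links actin and microtubules, which read 8.38, 8.57 and 8.49 on the wild type arrays and 8.88, 8.96 and 9.10 on the SmoM2 arrays (log2 change 0.50, SE 0.08, limma adjusted p = 0.0258). Leaving out wild type 1 gave an adjusted p of 0.147, leaving out wild type 2 gave 0.0719 and leaving out SmoM2 3 gave 0.144. The Y-linked covariate gave 0.324 and a liver covariate 0.0529. Kel, a blood group antigen of the red cell membrane, had a log2 change of -0.38 (adjusted p = 0.125) and Slc25a37, the carrier that brings iron into erythroid mitochondria, -0.33 (adjusted p = 0.341). Without wild type 3 Kel passed as well (limma adjusted p = 0.042). Of 20 further genes of heme handling and mitochondrial iron, 0 passed, with a median of -0.03 and 3 (15.0%) below wild type on all arrays. Abcg2, an exporter of porphyrins and many drugs, had the largest value, -0.42 (adjusted p = 0.0858), followed by Flvcr1, the heme exporter, at 0.21, and Hebp1, which binds heme, at -0.17. Without SmoM2 2, Abcg2 passed (-0.52, limma adjusted p = 0.018). Of 13 genes of erythropoietin and Kit signalling 0 passed, with a median of -0.05. In 5 of the 13 (38.5%) SmoM2 lay below wild type on all arrays, a higher share than among the 26 members (30.8%), and in 1 above. Kit, the stem cell factor receptor, which enteric pacemaker cells also carry, stood at -0.41 (adjusted p = 0.0931), its ligand gene Kitl at -0.39 (adjusted p = 0.0636) and the adaptor Gab1 at -0.15. Without SmoM2 2, Kit passed (-0.48, limma adjusted p = 0.0497). Epo itself was dim, at 7.75 to 7.87 in wild type and 7.83 to 7.96 in SmoM2.

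Genes of other cell types of the blood and its vessels mostly had changes of the same sign. Over all genes tested, 49.2% of changes were negative, and 10.1% of genes had SmoM2 below wild type on all arrays. Of 9 megakaryocyte and platelet genes 0 passed, 9 were negative (median -0.19) and 5 had SmoM2 below wild type on all arrays, with the chemokine genes Ppbp at -0.66 and Pf4 at -0.48 and the glycoprotein gene Gp9 at -0.33. Their mean levels ran from 9.22 to 9.33 in wild type and from 8.94 to 9.07 in SmoM2. Of 20 leukocyte genes 0 passed and 17 were negative (median -0.14, 9 below wild type on all arrays), with Lyz2 at -0.39, Cd68 at -0.37 and Mrc1 at -0.34, and mean levels of 8.80 to 8.85 and 8.60 to 8.73. Of 16 endothelial genes 0 passed and 14 were negative (median -0.12, 7 below wild type on all arrays), with the receptor genes Kdr at -0.36 and Tek at -0.32 and the coreceptor Eng at -0.23, and mean levels of 10.29 to 10.35 and 10.10 to 10.25. Of 8 stomach epithelium genes 5 fell (Cldn6 by 0.66, Cdh1 by 0.58, Krt18 by 0.57, Krt8 by 0.55 and Epcam by 0.48 on the log2 scale). All 8 were negative, with SmoM2 below wild type on all arrays. The median was -0.51, and mean levels were 10.95 to 11.04 and 10.37 to 10.56. Of the 8 mesenchymal genes Foxf2, Actg2 and Foxf1 rose (0.91, 0.69 and 0.37) and Des fell by 0.54. The part of these cell types in the erythroid values was not tested.

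The liver lies beside the stomach and makes red cells at this stage, and its marker genes varied within both groups. Of 16 measured 0 passed and 2 were negative (median 0.09), with Ambp at -0.63, Alb at 0.61 and Ahsg at 0.52. The mean level of the list was 8.89, 9.14 and 9.44 in wild type 1, 2 and 3 and 8.91, 9.44 and 9.40 in SmoM2, low in wild type 1 and SmoM2 1. With that mean as a covariate, an alternative added after the data were seen, the log2 changes were -0.36 for Alas2, -0.35 for Hemgn, -0.37 for Hbb-bh1 and -0.21 for Hba-x, with limma adjusted p from 0.172 to 0.434. These changes were about as large as without the covariate, whose values overlapped between the groups. The part of liver tissue in the erythroid values was not tested.

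**Figure D4:**
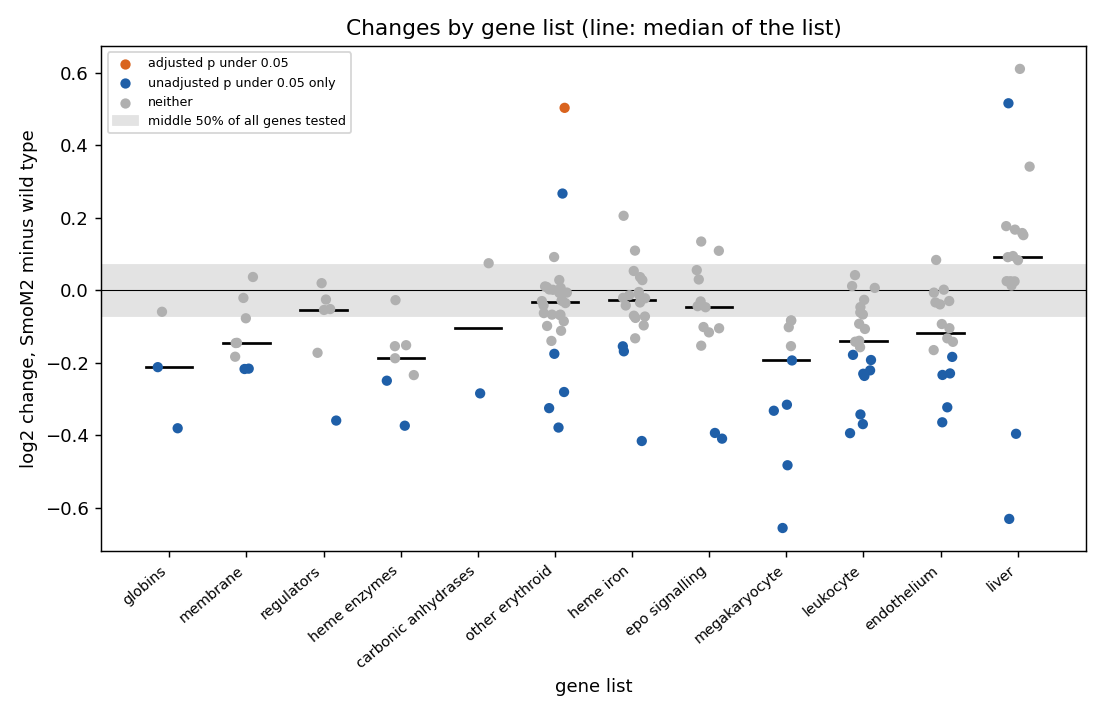
Log2 changes (SmoM2 minus wild type) of single genes (points) by list, with each list's median (line) and the middle 50% of all genes tested (grey band); orange marks an adjusted p under 0.05, blue an unadjusted p under 0.05 only. Among the 12 lists plotted, which leave out the stomach lists, Fhdc1 at 0.50 is the only orange point, and the medians of globins, heme enzymes and megakaryocyte genes lie lowest of these, at -0.21, -0.19 and -0.19.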

How the data were processed

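Total RNA of each stomach sample was extracted with Trizol, and cRNA was biotin labelled from 6 ug of it, per the labels' protocols. The deposited values are log2 signals of 35556 probe sets on 6 arrays. The authors used RMA and affy, per the submitters' processing notes, which name no version. RMA pulls arrays towards a common distribution and compresses small signals, and the number of arrays limits precision. The platform annotation gave 21789 probe sets 1 symbol and 1621 several; 12146 are unnamed here. One probe set a gene (highest mean over the 6 arrays) left 19938 genes, fitted with limma 3.58.1 in R 4.3.3 (lmFit, eBayes), with Benjamini-Hochberg adjustment over all of them and a threshold of 0.05. Changes are SmoM2 minus wild type; intervals are 95%. The members, lists and tests were chosen with earlier results of these data known. All members are named; members with an unadjusted p under 0.05 or the largest change of their role, all globins, all regulators and Alas2 are given by array. Of each other list the 3 largest changes and any past the threshold are named; Epo was chosen after its value was seen. The fit was tested on simulated data, where 28 of 50 genes lowered by 0.5 on the log2 scale passed, and 47 of 50 lowered by 1. The changes of the 26 members, from -0.38 to 0.07, were smaller than those simulated, so a gene that did not pass can still differ. Alternatives covered block, left-out arrays, filters, probe sets, scaling, eBayes options, weights and covariates.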

Additional observations from a re-analysis of the deposited data

How the results depend on the processing

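Of 473 tested values of single genes under the alternatives, 437 kept their direction and their side of the threshold, 24 changed sign and 12 passed the threshold as lower. The linear scale gave 26 more values with no test, all 26 of the same sign as on the log2 scale. The deviations of same-numbered arrays correlated with r of -0.07, 0.61 and 0.45 for numbers 1, 2 and 3. The arrays numbered 2 and those numbered 3 correlated best with each other, and those numbered 1 did not. The labels do not say what arrays of the same number share, and this was not tested. With the replicate number as a block, 3 members passed (Alas2, Hemgn and Hbb-bh1; adjusted p = 0.0201, 0.0204 and 0.0429), with 698 genes in all against 196, and 2 wider erythroid (Fhdc1 and Kel), 1 heme and iron (Abcg2) and 2 erythropoietin and Kit genes (Kit and Kitl). Array weights, whose estimation stopped before it converged, ran from 0.33 to 6.02. With them 6 of 26 members passed, a share near that of all genes (4110 of 19938). The other lists, with 5 of 28 wider erythroid, 4 of 20 heme and iron and 2 of 13 erythropoietin and Kit genes, had no higher share than all genes. Medians were -0.048 for membrane genes and -0.034 for carbonic anhydrases, and Hbb-y (0.047), Gata1 (0.056) and Fech (0.23) changed sign. An intensity trend gave 1 member (Hba-x, adjusted p = 0.0342) of 336 genes, 1 heme and iron gene and 2 erythropoietin and Kit genes. Among genes above the median, where fewer genes were tested, 2 members, 1 heme and iron gene and 1 erythropoietin and Kit gene passed of 291, and the carbonic anhydrase median, then Car2 alone, was -0.28. Above the 75th percentile 9 members were left, with 5 at an unadjusted p under 0.05 (17.9% of all genes) and 4 with groups apart (23.0% of all genes), 0 wider erythroid genes, 1 heme and iron gene and 1 erythropoietin and Kit gene past the threshold, the same -0.28, and no regulator. With the Y-linked covariate 22 genes passed in all, 3 members had an unadjusted p under 0.05, 0 wider erythroid genes passed, the membrane median was -0.052, and Sptb (0.014), Klf1 (-0.15), Fech (0.058) and Car1 (-0.066) changed sign. The liver covariate left 0 wider erythroid genes and Klf1 at -0.0052. Repeated quantile normalization gave 1 erythropoietin and Kit gene and turned Tfrc (0.0033) and Fech (0.014); centring on the 75th percentile turned Tfrc (0.018), Gata1 (0.014) and Fech (0.012). Leaving out 1 array in turn gave 0 members past the threshold in each of the 6 fits, 5 to 9 at an unadjusted p under 0.05 (6.5% to 15.9% of all genes), 8 to 15 with groups apart (20.1% to 33.8% of all genes; without SmoM2 1, 8 of 26, or 30.8%, against 26% of all genes, near the background), 0 to 2 wider erythroid, 0 to 1 heme and iron and 0 to 1 erythropoietin and Kit genes, a heme enzyme median of -0.30 to -0.12 and a membrane median of -0.19 to -0.095. In these, Tfrc ran from -0.11 to 0.039, Klf1 from -0.080 to 0.087, Fech from -0.15 to 0.048, Gata1 from -0.064 to 0.027, Tspo2 from -0.025 to 0.11 and Car1 from -0.038 to 0.18. The causes of these differences were not tested.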
